A study of Homo sapiens with 12 samples.

Results

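Transcripts of 7 genes of the cytoplasmic tyrosine kinase signalling module that retinoic acid engages in myeloid leukemia cells were examined, namely the SRC-family kinases FGR and LYN, the kinases FES and SYK, the exchange factor VAV1, the adaptor LCP2 and the ubiquitin ligase CBL. The 7 genes were chosen by name, with earlier results of these data known. All 7 were found by their symbol among the 59251 genes of the count table. All of them passed the expression filter, which kept 13318 genes. RNA-Seq had been performed on HL60, a human myeloid leukemia cell line, grown in RPMI1640 with fetal bovine serum. The 4 groups were non-treated cells, cells treated with 1 µM all-trans retinoic acid (ATRA), cells treated with 1 µM palbociclib, an inhibitor of the cyclin-dependent kinases CDK4 and CDK6 (CDK4/6i), and cells treated with both drugs at these doses (CDK4/6i+ATRA). Treatment lasted 48 h, each group had 3 libraries labelled as biological replicates, and no vehicle for the non-treated cells is named in the labels. The study describes its RNA-Seq data as coming from independent experiments. Because a single line was used, p-values measure the spread between replicates of that line.

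SRC-family kinases are membrane-anchored tyrosine kinases that phosphorylate the paired tyrosines of ITAM motifs in immune receptors. SYK docks on these phosphorylated motifs and phosphorylates the adaptor LCP2, which holds VAV1 near the membrane, where VAV1 loads RAC-type GTPases. CBL attaches ubiquitin to activated kinases and also serves as a scaffold, and in ATRA-treated HL60 cells these proteins have been studied together with RAF and other kinases as a complex called a signalsome.

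FGR lies on hg38 chr1:27612064-27635185 on the minus strand and FES on chr15:90884504-90895776 on the plus strand. SYK lies on chr9:90801600-90898549 on the plus strand, VAV1 on chr19:6772708-6857361 on the plus strand, LCP2 on chr5:170246233-170297777 on the minus strand and CBL on chr11:119206339-119308149 on the plus strand. None of the 7 is listed on a second contig. The exons of LCP2 overlap those of the oppositely oriented C5orf58 by 78 bases. C5orf58 had 145 counts in all and LCP2 57423, and no source used here says whether counting respected strand.

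Promoter sequence was available for 5 of the 7 genes in the RefSeq table used (GRCh38.p14). The 200 bases before the outermost listed start are shown for FGR, LCP2, VAV1 and SYK. With ATRA, transcripts of FGR, LCP2 and VAV1 rose, and the level of SYK differed least among the 7. Each is written 5′ to 3′ on the strand of its gene. The windows are chr1:27635186-27635385 for FGR, chr5:170297778-170297977 for LCP2, chr19:6772508-6772707 for VAV1 and chr9:90801400-90801599 for SYK, all upstream of the annotated transcript. Capitals mark GAGGAA on either strand, a core of the motif bound by the myeloid ETS factor PU.1.
FGR: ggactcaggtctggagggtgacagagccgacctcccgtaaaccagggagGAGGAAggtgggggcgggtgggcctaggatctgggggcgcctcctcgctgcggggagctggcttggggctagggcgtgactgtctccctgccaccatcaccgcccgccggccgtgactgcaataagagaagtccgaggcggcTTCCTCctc
LCP2: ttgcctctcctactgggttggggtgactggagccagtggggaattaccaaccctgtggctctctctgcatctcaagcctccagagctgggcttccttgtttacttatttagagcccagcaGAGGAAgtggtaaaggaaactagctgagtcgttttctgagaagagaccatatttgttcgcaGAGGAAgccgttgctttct
VAV1: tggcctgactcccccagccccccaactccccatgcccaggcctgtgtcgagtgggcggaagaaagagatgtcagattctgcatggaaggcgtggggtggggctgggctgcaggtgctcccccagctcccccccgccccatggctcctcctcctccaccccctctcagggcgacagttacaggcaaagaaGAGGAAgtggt
SYK: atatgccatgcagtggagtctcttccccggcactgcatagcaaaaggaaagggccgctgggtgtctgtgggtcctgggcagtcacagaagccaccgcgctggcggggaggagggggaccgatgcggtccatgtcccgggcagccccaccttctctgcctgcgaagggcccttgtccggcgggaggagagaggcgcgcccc

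GAGGAA occurred in 2 places in the FGR window, 151 bases before the start and, on the opposite strand, 9 bases before it. The LCP2 window held it 80 and 19 bases before the start and the VAV1 window 11 bases before it. The SYK window shown had no match, whereas the windows before the second and the third listed start of SYK held 2 matches and 1 match. The windows before the listed start of FES and before the second start of FGR held none. Among all 35116 windows of 200 bases, 19.3% held GAGGAA on at least 1 strand. AGGTCA, the core of the element bound by retinoic acid receptors, was in none of the windows of these 5 genes and in 9.83% of all windows. TTGCNNAA, a form of the C/EBP motif, was found once, before the second start of SYK, and in 6.91% of all windows. These are matches of letters, and binding was not measured here.

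The libraries held 12230923 to 18679544 counts, and replicates of the same treatment were distinct libraries (chi-square per degree of freedom 1.85 to 6.81 between pairs). Of 5 promyelocyte markers, MPO and CTSG were counted and ELANE, PRTN3 and AZU1, which are also listed on an alternate contig, were at 0 in every library. In non-treated cells the summed markers ranged from 6347 to 6681 CPM, the counts scaled to a common library total. They ranged from 269 to 323 CPM under ATRA, from 3417 to 3545 under CDK4/6i and from 25.2 to 34.6 under the pair of drugs. The sum of 7 mature neutrophil markers, such as ITGAM and CYBB, ranged from 230 to 244 CPM, from 2637 to 2709, from 639 to 661 and from 4560 to 4709 in the same order. CYBB had the most counts of the 7 in every library. CXCR2, also of the 7, had 699 to 846 raw counts, 1108 to 1343, 1003 to 1330 and 503 to 642 in the same order. FCGR3B, a defining neutrophil marker, was at 0 in non-treated cells and had at most 5 counts in any library. Summed monocyte markers (5 genes) reached 0.601 CPM without drugs, 4.97 under ATRA, 0.207 under CDK4/6i and 16.1 under the pair of drugs, and CD163 was at 0 in every treated library. Summed markers of T cells, erythroid cells and megakaryocytes (4 genes each) and of B cells (5 genes) stayed at or below 3.16, 1.32, 10.2 and 25.3 CPM. Of the 6 neutrophil markers tested, 6 rose with ATRA, 6 with CDK4/6i and 5 with both drugs, beside 32.1%, 28.3% and 41% of all genes. With both drugs 1 was lower than with CDK4/6i and 1 lower than with ATRA, beside 39.5% and 32.8% of all genes. The promyelocyte, neutrophil and monocyte lists moved with the results below, and their part in them was not tested. In bulk RNA, fewer cells of a type and less RNA per cell cannot be told apart.

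Levels of the 7 genes were expressed as CPM after TMM normalization, which scales each count to a common effective library total. A gene was called changed when the Benjamini-Hochberg adjusted p-value of edgeR's quasi-likelihood test, over all 13318 genes, was under 0.05. Within a group, the coefficient of variation of the 7 genes was between 0.876% and 8.92% (median 3.35%).

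**Figure D1:**
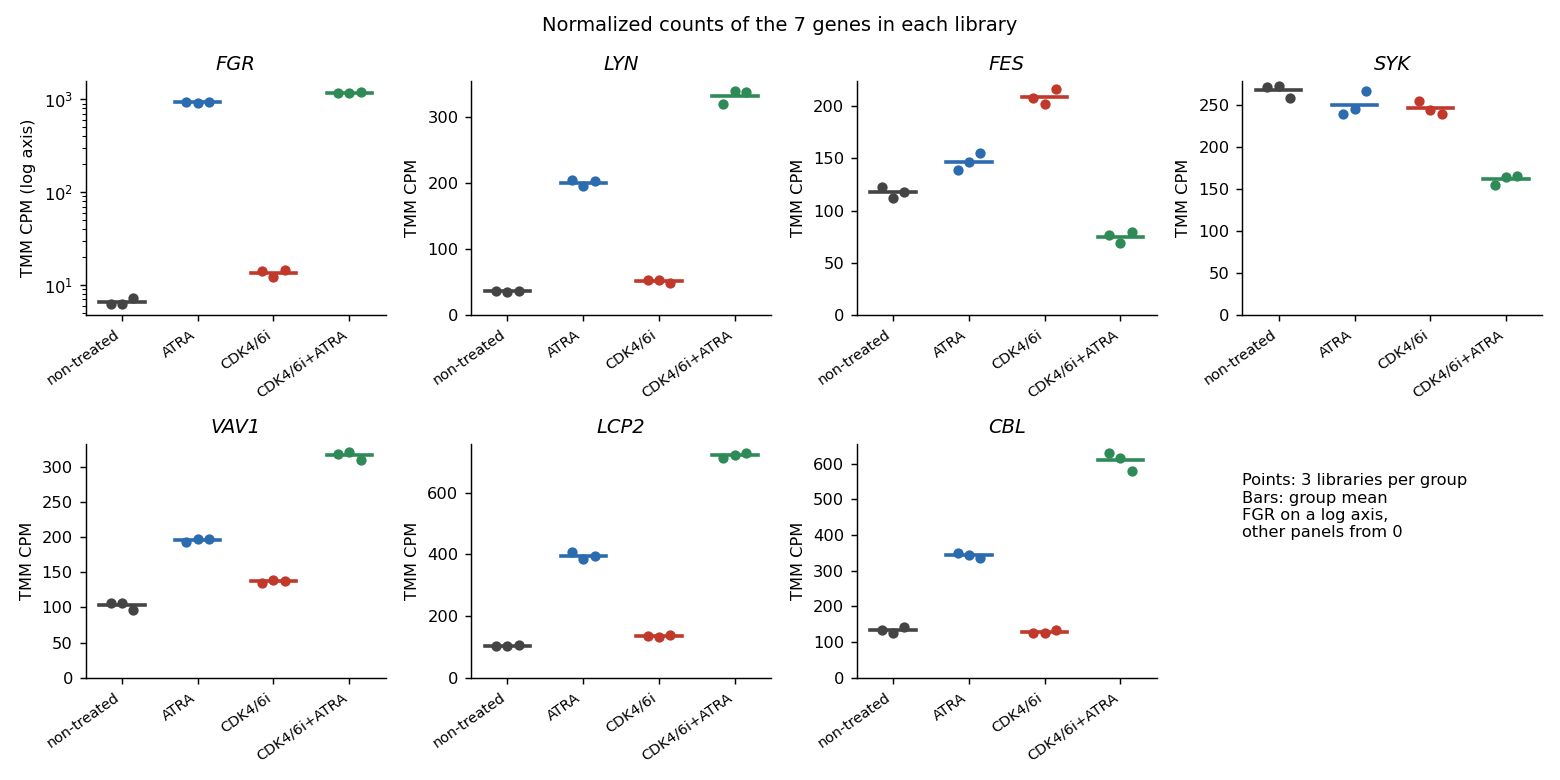
TMM-normalized CPM of each of the 7 genes in the 12 libraries, by group, with points for libraries and bars for group means. FGR is on a log axis and the other panels start at 0. The 3 CDK4/6i+ATRA libraries lie above all other libraries for FGR, LYN, VAV1, LCP2 and CBL and below all others for FES and SYK.

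With ATRA alone, 6 of the 7 genes rose and 1, SYK, fell, a call that was lost in 9 alternatives (adjusted p up to 0.301). The same calls were made for 32.1% (higher) and 35.5% (lower) of all tested genes. With CDK4/6i alone, 5 rose, 1 fell and CBL was not called, against 28.3% higher and 27.9% lower among all genes. Under CDK4/6i+ATRA relative to no treatment, 5 rose and 2 fell, against 41% and 40.7% of all genes. The same 5 genes were higher and the same 2 lower when CDK4/6i+ATRA was compared with CDK4/6i (39.1% and 39.5% of all genes) and with ATRA (36.9% and 32.8%). Under TMM normalization, every CDK4/6i+ATRA library was above all other libraries for 5 of the 7 genes, as in 28.3% of all genes. For FES and SYK every one was below, as in 25.7%. For FGR the separation from ATRA depended on TMM and was not kept under library size alone. The comparisons share libraries and are not independent of each other. Because the 7 were chosen with earlier results of these data known, these counts are a description.

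FGR, a SRC-family kinase of mature myeloid cells, changed most among the 7 relative to no treatment, whereas its step from ATRA to CDK4/6i+ATRA was the smallest. Its level was 6.19, 6.21 and 7.21 CPM in non-treated cells, from 99 to 128 raw counts. It was 945, 907 and 931 CPM with ATRA and 1178, 1161 and 1208 CPM with CDK4/6i+ATRA. With CDK4/6i alone FGR stood at 14.1, 12.3 and 14.5 CPM. All 4 groups were separated under TMM, with both ATRA-containing groups far above the other groups. FGR rose 141-fold with ATRA (log2 fold change 7.14, SE 0.062, adjusted p = 1.45e-55), the 52nd largest rise of all tested genes, and 2.08-fold with CDK4/6i (1.06, SE 0.095, adjusted p = 9.07e-14). With both drugs the rise was 180-fold (7.49, SE 0.062, adjusted p = 9.77e-57). The step from ATRA to CDK4/6i+ATRA was 1.27-fold (0.35, SE 0.038, adjusted p = 1.39e-11), and it was not called when libraries were scaled by library size alone (0.04, adjusted p = 0.236).

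LYN, a SRC-family kinase with activating and inhibitory roles in myeloid and B cells, lies on hg38 chr8:55879835-56014169 on the plus strand. It had 36.5, 34.1 and 36.5 CPM in non-treated cells. It had 204, 195 and 203 CPM with ATRA. CDK4/6i left it at 53.3, 53.0 and 48.9 CPM and CDK4/6i+ATRA at 320, 339 and 338 CPM. The groups did not overlap, in the order non-treated, CDK4/6i, ATRA, CDK4/6i+ATRA. LYN rose 5.61-fold with ATRA (log2 fold change 2.49, SE 0.046, adjusted p = 1.93e-41), 1.45-fold with CDK4/6i (0.53, SE 0.053, adjusted p = 2.36e-12) and 9.29-fold with both (3.22, SE 0.046, adjusted p = 6.23e-47). CDK4/6i+ATRA exceeded ATRA alone by 1.66-fold (0.73, SE 0.038, adjusted p = 1.03e-22).

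FES, a cytoplasmic kinase with a membrane-bending F-BAR domain and an SH2 domain, rose with either drug and fell with both. It had 123, 113 and 117 CPM in non-treated cells and 139, 147 and 155 CPM with ATRA. It had 208, 202 and 217 CPM with CDK4/6i but 76.4, 69.3 and 79.4 CPM with CDK4/6i+ATRA. The 4 groups did not overlap. The log2 fold change was 0.32 with ATRA (SE 0.045, adjusted p = 1.21e-08), 0.83 with CDK4/6i (SE 0.044, adjusted p = 3.51e-22) and -0.65 with both drugs (SE 0.050, adjusted p = 1.62e-16). CDK4/6i+ATRA was 2.78-fold below CDK4/6i (-1.48, SE 0.048, adjusted p = 1.82e-31) and 1.96-fold below ATRA (-0.97, SE 0.049, adjusted p = 3.28e-23).

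SYK, the kinase that docks on phosphorylated ITAMs, was lowest with both drugs. It had 272, 273 and 258 CPM in non-treated cells, 240, 246 and 267 CPM with ATRA, and 256, 244 and 240 CPM with CDK4/6i. With CDK4/6i+ATRA it had 156, 164 and 166 CPM, below every other library. The ATRA libraries overlapped the non-treated ones. The small difference with ATRA (log2 fold change -0.09, SE 0.039, adjusted p = 0.0353) was lost under 9 of the alternatives run, including DESeq2 in place of edgeR (adjusted p = 0.229). Those 9 also included leaving out replicate 1 (adjusted p = 0.106) or 2 (0.112) of non-treated cells, or replicate 1 (0.222) or 2 (0.128) of ATRA. The difference with CDK4/6i (-0.12, SE 0.039, adjusted p = 0.00902) was lost without replicate 3 of that group (adjusted p = 0.0703). With both drugs SYK fell 1.65-fold (-0.73, SE 0.042, adjusted p = 2.37e-21), and CDK4/6i+ATRA was 1.55-fold below ATRA (-0.63, SE 0.042, adjusted p = 1.02e-18).

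VAV1, the exchange factor for RAC-type GTPases in blood cells, had 106, 107 and 96.5 CPM in non-treated cells and 193, 197 and 197 CPM with ATRA. It had 135, 139 and 137 CPM with CDK4/6i and 318, 321 and 309 CPM with CDK4/6i+ATRA. The groups did not overlap. VAV1 rose 1.90-fold with ATRA (log2 fold change 0.93, SE 0.040, adjusted p = 6.17e-26), 1.33-fold with CDK4/6i (0.41, SE 0.041, adjusted p = 2.68e-12) and 3.07-fold with both (1.62, SE 0.040, adjusted p = 8.90e-37). It was 1.62-fold higher with CDK4/6i+ATRA than with ATRA (0.69, SE 0.038, adjusted p = 5.94e-22).

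LCP2, the adaptor that joins VAV1 and phospholipase C gamma downstream of SYK, had 103, 104 and 105 CPM in non-treated cells. It had 407, 385 and 396 CPM with ATRA, 136, 131 and 138 CPM with CDK4/6i, and 713, 722 and 728 CPM with CDK4/6i+ATRA. These groups were also separate, and non-treated replicates differed by only 0.876% (coefficient of variation). LCP2 rose 3.80-fold with ATRA (log2 fold change 1.92, SE 0.039, adjusted p = 4.09e-40), 1.29-fold with CDK4/6i (0.37, SE 0.040, adjusted p = 3.57e-11) and 6.91-fold with both (2.79, SE 0.039, adjusted p = 1.91e-47). CDK4/6i+ATRA exceeded ATRA by 1.82-fold (0.86, SE 0.035, adjusted p = 3.01e-27).

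CBL, the ubiquitin ligase, had 135, 126 and 143 CPM in non-treated cells and 124, 126 and 133 CPM with CDK4/6i, and these groups overlapped. ATRA gave 350, 343 and 336 CPM and CDK4/6i+ATRA 631, 616 and 581 CPM. CBL rose 2.55-fold with ATRA (log2 fold change 1.35, SE 0.042, adjusted p = 4.46e-32) and 4.52-fold with both drugs (2.18, SE 0.042, adjusted p = 1.64e-41). With CDK4/6i alone the log2 fold change was -0.08 (95% confidence interval -0.17 to 0.01, adjusted p = 0.125), and it was called only without replicate 2 of the non-treated cells (-0.12, adjusted p = 0.0272). CDK4/6i+ATRA was nevertheless 1.78-fold above ATRA (0.83, SE 0.039, adjusted p = 1.54e-24).

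**Figure D2:**
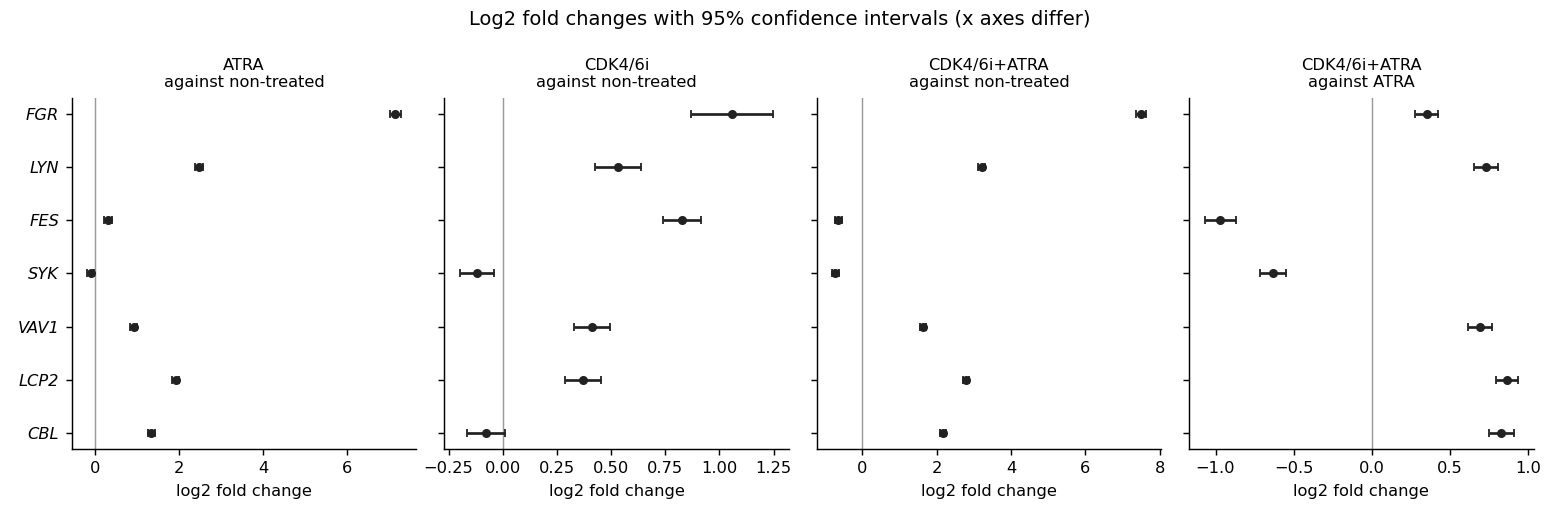
Log2 fold changes of the 7 genes in 4 comparisons, with 95% confidence intervals from edgeR. The x axes differ between panels. FGR rose by 7.14 with ATRA and 1.06 with CDK4/6i, and FES and SYK lie below 0 in both comparisons of CDK4/6i+ATRA.

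Compared with CDK4/6i alone, the log2 fold change under CDK4/6i+ATRA was 6.44 for FGR, 2.68 for LYN, 2.42 for LCP2, 2.25 for CBL, 1.21 for VAV1 and -0.61 for SYK, and each passed the test (highest adjusted p = 2.96e-18, for SYK). The step from ATRA to CDK4/6i+ATRA was smaller under library size alone, at 0.42 for LYN, 0.39 for VAV1, 0.56 for LCP2 and 0.52 for CBL, and these 4 were still called (highest adjusted p = 2.69e-11, for VAV1). An exact two-sided permutation test on a single gene cannot go below p = 0.1 with 3 libraries against 3. It gave 0.1 for every gene in the 5 comparisons between groups, except 0.2 for SYK with ATRA and for CBL with CDK4/6i.

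The order of the genes by level was read from reads per kilobase of exon, scaled like CPM (RPKM), since counts grow with transcript length. The length was that listed for each gene in the count table, from 2867 bases for FES to 13817 for SYK. Lengths of the transcripts present were not measured, and the order depends on them. By CPM, SYK was the highest in non-treated cells (268 CPM, beside 118 for FES). In non-treated cells FES was highest (41.0 RPKM ± 1.81, SD, n = 3), followed by VAV1 (35.6 ± 1.96), LCP2 (24.6 ± 0.216), SYK (19.4 ± 0.595), CBL (12.1 ± 0.748), LYN (6.08 ± 0.236) and FGR (2.19 ± 0.196). The order was the same with CDK4/6i, from FES at 72.8 RPKM ± 2.64 to FGR at 4.57 ± 0.376. With ATRA, FGR moved from the lowest to the highest place (311 RPKM ± 6.57), before LCP2 (93.6 ± 2.53), VAV1 (67.6 ± 0.765), FES (51.3 ± 2.73), LYN (34.2 ± 0.803), CBL (30.7 ± 0.631) and SYK (18.2 ± 1.02). With CDK4/6i+ATRA the order was FGR (397 ± 8.06), LCP2 (170 ± 1.72), VAV1 (109 ± 2.18), LYN (56.5 ± 1.85), CBL (54.5 ± 2.30), FES (26.2 ± 1.82) and SYK (11.7 ± 0.394). Neighbours in each order did not overlap between libraries, except LYN and CBL with CDK4/6i+ATRA.

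The make-up of the SRC-family kinase transcripts also differed between the groups, as read from the RPKM of 8 kinases of the family. Their sum was 13.7 ± 0.707 (SD, n = 3) without drugs, 18.97 ± 0.442 under CDK4/6i, 350.1 ± 7.33 under ATRA and 463 ± 8.95 under CDK4/6i+ATRA. In non-treated cells LYN held 44.3% ± 2.22 of this sum, YES1, a widely expressed member, 39.1% ± 1.89 and FGR 15.9% ± 0.594. With ATRA, FGR held 88.9% ± 0.030, LYN 9.76% ± 0.058 and YES1 1.27% ± 0.085. With CDK4/6i+ATRA the shares were 85.7% ± 0.394 for FGR, 12.2% ± 0.398 for LYN and 1.85% ± 0.080 for YES1. CDK4/6i alone left LYN as the largest of the 8 at 46.4% ± 2.11, with FGR at 24.1% ± 1.79. These sums and shares rest on the listed lengths as well.

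YES1 fell with ATRA (log2 fold change -0.28, adjusted p = 0.00127), had 0.04 with CDK4/6i (adjusted p = 0.699) and rose with both drugs (0.67, adjusted p = 1.17e-11). SRC, also listed on a second contig and therefore uncertain, was at 0.737 CPM ± 0.139 in non-treated cells and 8.57 ± 1.38 with CDK4/6i+ATRA. FYN was at 0.361 CPM ± 0.128 and 2.93 ± 0.282 in the same groups. LCK and FRK had at most 3 and 4 counts in any library, and BLK, also listed on a second contig, had none. FYN had at most 9 counts in any library outside the CDK4/6i+ATRA group and 32 to 36 in it, so it passed the expression filter only through the group where it is high.

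**Figure D3:**
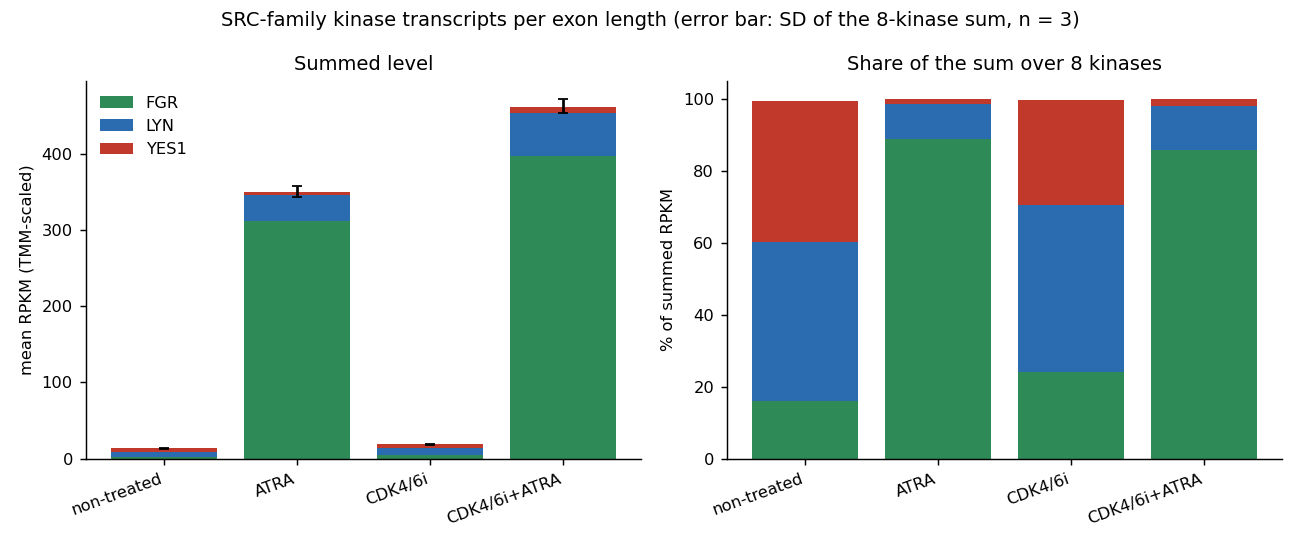
Summed mean RPKM of SRC-family kinases per group (left, with the SD of the sum over 8 kinases in 3 libraries) and their shares of that sum in percent (right). FGR, LYN and YES1 are drawn, and the other 5 kinases are too low to be seen. FGR makes up 15.9% of the sum in non-treated cells and 88.9% with ATRA.

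The interaction measured how far both drugs together departed from their single effects, as the log2 fold change of CDK4/6i+ATRA minus those of ATRA and of CDK4/6i. Under TMM, 4 of the 7 genes had a positive interaction and 3 a negative one, as did 24.5% and 27% of all genes. Scaling by library size alone moved the median interaction of all genes from -0.02 to -0.34, and 2 of the 7 were then called positive and 3 negative, beside 10.3% and 45.5% of all genes. FES departed most, with 75.0 CPM observed against 261 CPM had its single-drug folds multiplied (interaction -1.80, SE 0.066, adjusted p = 4.94e-28), and only 600 of all genes were as low or lower. FGR reached 1182 CPM against 1933 (-0.71, SE 0.10, adjusted p = 7.58e-08), and SYK 162 CPM against 231 (-0.52, SE 0.058, adjusted p = 1.03e-10). FGR was nevertheless above 935 CPM, its level if the single-drug increases in CPM were added. Under library size alone the values were -2.12 for FES, -1.02 for FGR and -0.83 for SYK (adjusted p = 1.80e-24, 9.43e-12 and 5.62e-16).

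CBL, with no called change under CDK4/6i alone, reached 609 CPM against 325 (interaction 0.91, SE 0.059, adjusted p = 1.60e-18). LCP2 reached 721 CPM against 512 (0.49, SE 0.053, adjusted p = 3.78e-11). These stayed positive under library size alone, with 0.59 for CBL (adjusted p = 4.79e-10) and 0.18 for LCP2 (adjusted p = 0.00235). VAV1 reached 316 CPM against 260 (0.28, SE 0.056, adjusted p = 3.06e-05), which turned to -0.038 under library size alone (adjusted p = 0.589). LYN reached 332 CPM against 290 (0.19, SE 0.065, adjusted p = 0.0112), which turned to -0.12 under library size alone (adjusted p = 0.0856), was not called with no filter on low counts (0.11, adjusted p = 0.411) and was not called without replicate 3 of CDK4/6i (0.15, adjusted p = 0.0769).

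**Figure D4:**
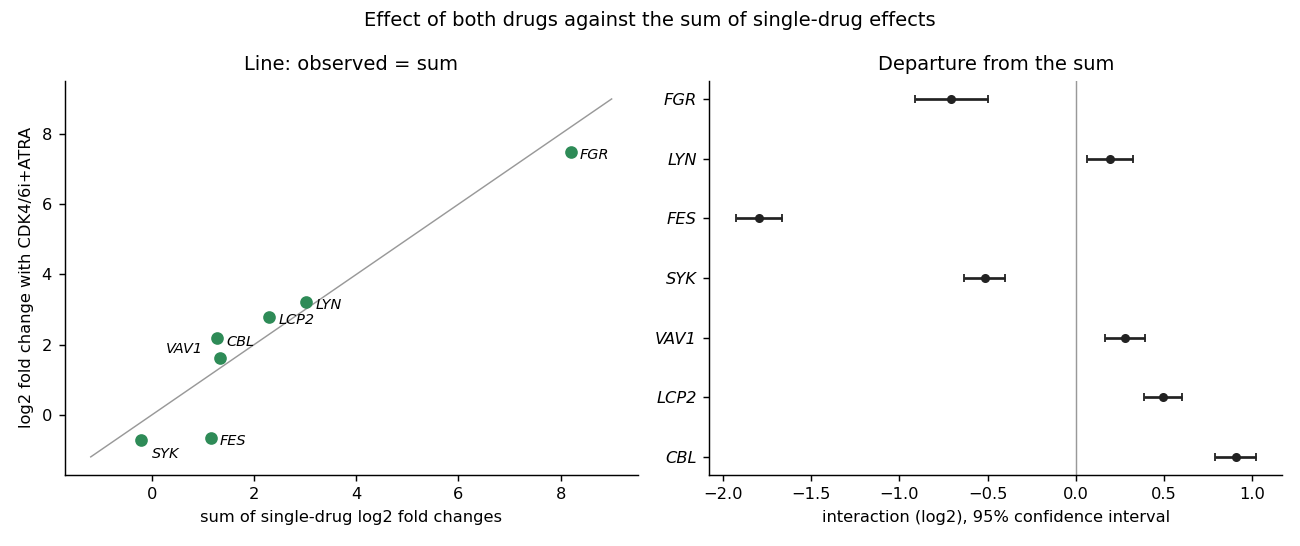
Left, log2 fold change of the 7 genes under CDK4/6i+ATRA (y axis) and the summed log2 values of ATRA and CDK4/6i given singly (x axis), with a line where they are equal. Right, the interaction with its 95% confidence interval under TMM. FES lies lowest at -1.80 and CBL highest at 0.91, and the small positive values of LYN and VAV1 turned negative under library size alone.

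Other genes of the same signalling routes were taken from 10 lists compiled from general knowledge, with 179 genes beside the 7, of which 149 were tested. The lists were also chosen with earlier results of these data known, so the shares of all genes are given for scale only. With ATRA 101 rose and 28 fell, beside 32.1% and 35.5% of all genes. With CDK4/6i 73 rose and 32 fell, beside 28.3% and 27.9%. With the pair of drugs 104 rose (69.8%) and 36 fell (24.2%), beside 41% and 40.7%, and the median log2 fold change was 0.85 beside 0.02 over all genes. Against ATRA alone 99 were higher and 30 lower with both drugs, beside 36.9% and 32.8% of all genes. Under library size alone these became 66 and 56, beside 22.2% and 48.1% of all genes, whose median was then -0.26. Of the 179 genes, 20 are also listed on other contigs and are uncertain. A gene that passed the filter only through a group where it was high had to differ, so these counts and medians are a description of the tested genes. Unless stated, the counts that follow compare CDK4/6i+ATRA with no treatment, to be read beside 41% of all genes higher and 40.7% lower, or 32.9% and 48.3% under library size alone. That scaling lowered the median of all genes to -0.25 and moved 5 list medians by more than 1.5 times. They became 0.08 for the other cytoplasmic tyrosine kinases, 0.50 for the adaptors and exchange factors, -0.43 for the partners of CBL, 0.44 for the PI3K, phospholipase C and protein kinase C genes and 0.30 for the RAF/MEK/ERK arm.

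Among receptors whose tails carry ITAMs or that pair with ITAM adaptors, 10 of 15 tested genes rose and 3 fell (median 1.74). CD300LB, an activating receptor of myeloid cells that is also listed on a second contig, had means of 4.81 CPM without drugs, 158 under ATRA, 4.63 under CDK4/6i and 635 under both. TREM1, which amplifies inflammatory responses of neutrophils and monocytes, had 0.263, 15.3, 0.238 and 27.2 CPM in the same order. Without ATRA it was near the floor of 3 counts (0.156 to 0.275 CPM), and it passed the expression filter only through the groups where it is high. FCGR1A, the high-affinity IgG receptor, fell (log2 fold change -2.01, adjusted p = 5.63e-13). CD79A, a chain of the B-cell receptor, had -0.23 (adjusted p = 0.0414), and its call was lost under DESeq2's size factors (-0.21, adjusted p = 0.0600).

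Among inhibitory receptors with ITIMs, which are phosphorylated by SRC-family kinases, 11 of 15 rose and 3 fell (median 3.57). CEACAM1, an inhibitory adhesion receptor, had 0.120, 110, 0.191 and 93.4 CPM in non-treated, ATRA, CDK4/6i and CDK4/6i+ATRA cells. LILRB2, which is listed on several contigs, had 0.021, 2.88, 0.020 and 3.88 CPM. Without ATRA both CEACAM1 and LILRB2 were near or under the floor of 3 counts. They passed the expression filter only through the groups where they are high. PECAM1, a platelet and leukocyte adhesion molecule, rose with ATRA (log2 fold change 0.34, adjusted p = 4.52e-05) and fell with both drugs (-0.69, adjusted p = 4.88e-10). LAIR1, a collagen receptor that is also listed on several contigs, had 6.93, 13.3, 7.96 and 3.24 CPM, with the same pair of directions (0.94 and -1.09, adjusted p = 1.14e-09 and 6.58e-08).

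Of 16 regulators of SRC-family kinases, 12 rose and 4 fell (median 1.38). SLA, an adaptor that works with CBL to lower receptor levels, rose from 23.6 CPM to 396 with ATRA and 657 with both drugs (log2 fold change with both 4.80, adjusted p = 3.05e-54). PTPRE, a tyrosine phosphatase, rose from 43.3 to 206 and 775 CPM (4.16, adjusted p = 2.97e-52). MATK, a kinase that phosphorylates the inhibitory tail of SRC-family kinases, fell from 150 to 73.1 and 96.8 CPM (-0.63, adjusted p = 1.60e-17). SLA2, a relative of SLA, had 3.86 CPM in non-treated cells, 4.75 with ATRA and 0.674 with both drugs (-2.51, adjusted p = 4.52e-11).

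Of 12 tested cytoplasmic tyrosine kinases other than FES, SYK and the SRC family, 7 rose and 4 fell (median 0.34). JAK2 and TYK2, kinases of cytokine receptors, rose (log2 fold change 2.49 and 1.61, adjusted p = 2.55e-35 and 1.68e-35). TEC, a kinase that acts on phospholipase C gamma, fell (-0.84, adjusted p = 9.72e-05), as did TNK2 (-0.72, adjusted p = 3.47e-12).

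Of 22 tested adaptors and exchange factors that work with VAV1 and LCP2, 15 rose and 5 fell (median 0.77). DOK2, an adaptor that dampens RAS signalling, went from 6.58 CPM to 40.5 with ATRA, 14.2 with CDK4/6i and 196 with both drugs (log2 fold change with both 4.90, adjusted p = 3.47e-45), and NEDD9, a scaffold of the CAS family, rose (2.08, adjusted p = 7.89e-33). LAT, the membrane scaffold for LCP2 in T cells, fell from 6.25 to 1.25 CPM (-2.31, adjusted p = 4.68e-12), and ELMO1, a partner of DOCK-type RAC activators, fell (-0.58, adjusted p = 1.59e-16).

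Of 10 tested partners and relatives of CBL, 4 were higher and 6 lower (median -0.17). SPRY2, a CBL-binding inhibitor of RAS and ERK signalling, rose (log2 fold change 3.04, adjusted p = 4.10e-47), and CBLB, a second CBL ligase, went from 4.91 CPM to 10.9 (1.15, adjusted p = 3.21e-10). SPRY1 fell (-1.60, adjusted p = 7.19e-18), as did SH3KBP1, an adaptor that links CBL to endocytosis (-0.56, adjusted p = 1.87e-17).

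Downstream of the module, 15 of 22 PI3K, phospholipase C and protein kinase C genes rose and 5 fell (median 0.70). PIK3CG, the leukocyte catalytic subunit downstream of G-protein-coupled receptors, went from 121 CPM to 945 with ATRA and 1634 with both drugs (log2 fold change with both 3.75, adjusted p = 1.69e-50), and its regulatory partner PIK3R5 rose (3.05, adjusted p = 2.83e-41). PLCG1, an enzyme that binds LCP2, had 7.79, 3.45, 2.32 and 0.177 CPM in non-treated, ATRA, CDK4/6i and CDK4/6i+ATRA cells. PRKCQ, a protein kinase C of T cells, had 6.40, 4.77, 3.65 and 1.07 CPM.

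Of 23 genes of the RAF/MEK/ERK arm, 17 rose and 5 fell (median 0.56). RASGRP4, a RAS activator of myeloid cells, and DUSP6, a phosphatase of ERK, rose (log2 fold change 3.11 and 3.06, adjusted p = 3.92e-25 and 6.47e-47). PEBP1, an inhibitor of RAF, fell (-2.76, adjusted p = 4.97e-43), and KSR1, a scaffold of the arm, rose with ATRA (0.33, adjusted p = 2.50e-07) and fell with both drugs (-0.81, adjusted p = 1.57e-16). In the last list, of other proteins tied to the signalsome, 11 of 14 rose and 3 fell (median 1.80). CD38, an ectoenzyme, had 0.179, 399, 0.188 and 405 CPM in the 4 groups, and CXCR5, a chemokine receptor, 0.516, 142, 0.853 and 267 CPM. Without ATRA, CD38 was near the floor of 3 counts, and it passed the expression filter only through the groups where it is high. CDK2 fell with both drugs (-3.52, adjusted p = 2.59e-36), and RXRA, the partner of retinoic acid receptors, fell (-0.81, adjusted p = 8.41e-23).

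**Figure D5:**
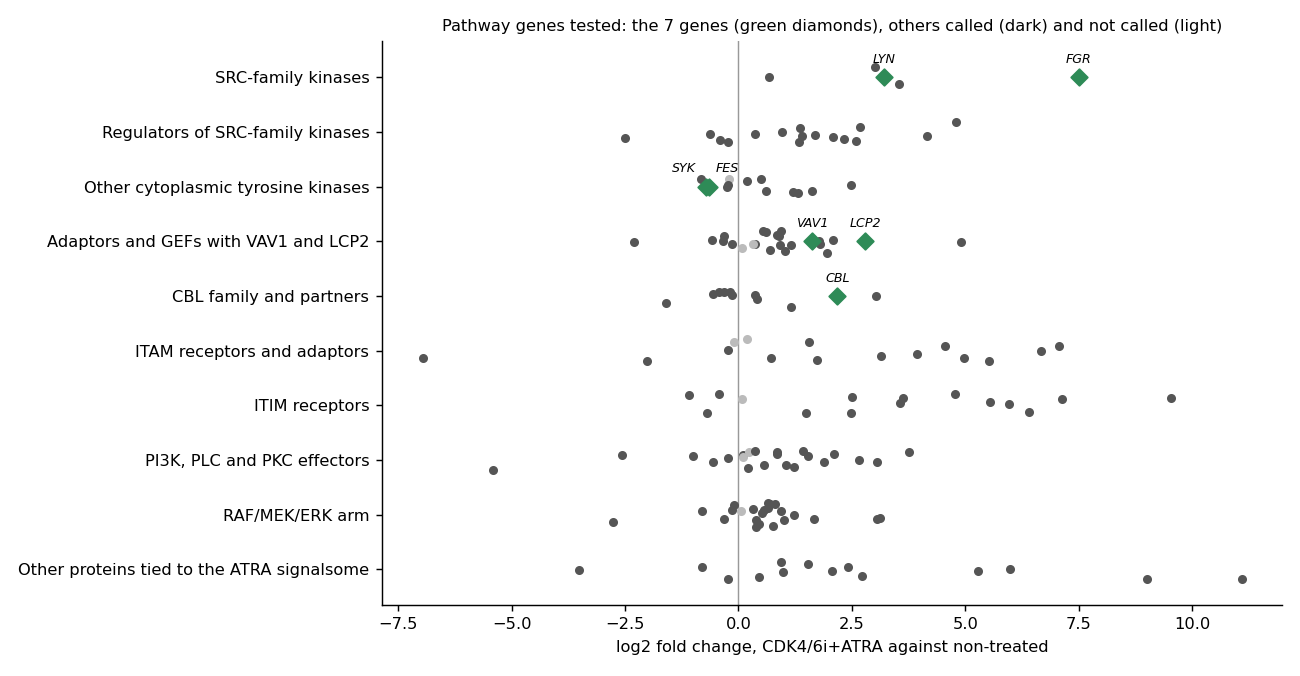
Log2 fold change from no treatment to CDK4/6i+ATRA for each tested gene of 10 pathway lists (rows). Green diamonds are the 7 genes, dark circles other genes that were called and light circles genes that were not. FGR stands at 7.49, and FES and SYK lie below 0 at -0.65 and -0.73.

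Genes with a pattern most like that of each of the 7 were found by the root mean square difference over the 12 libraries of log2(CPM + 1), centred on the non-treated mean, among 9293 genes. This is a description and has no test. SEMA6B, a semaphorin, was nearest to FGR (difference 0.43) with means of 5.30, 839, 13.4 and 1729 CPM in non-treated, ATRA, CDK4/6i and CDK4/6i+ATRA cells, followed by CXCR5 (0.46). CXCR5 had 0.516 and 0.853 CPM in the groups without ATRA, where the added 1 CPM shrinks its changes. Against no treatment, the log2 fold change with both drugs was 8.35 for SEMA6B and 8.99 for CXCR5, beside 7.49 for FGR. ZCCHC24 (0.13) and APLP2 (0.13) were nearest to LYN. SYNPO2 (0.16) and BTN3A3 (0.18) were nearest to FES, and SYNPO2 had 4.52, 6.60, 9.06 and 2.04 CPM in the 4 groups. ARPC1B, a subunit of the actin-nucleating ARP complex (0.054), and INAFM2 (0.061) were nearest to VAV1. EHD1, an endocytic recycling ATPase (0.056), and PREX1, a RAC exchange factor of neutrophils (0.076), were nearest to LCP2. RNF19B, a ubiquitin ligase (0.085), and STK17A, a serine/threonine kinase (0.086), were nearest to CBL. MDH1, the cytosolic malate dehydrogenase (0.049), and RSBN1 (0.059) were nearest to SYK. Among the 7 genes themselves LYN and LCP2 were the closest pair (0.35).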

How the data were processed

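RNA-Seq of HL60 cells covered 12 libraries in 4 groups of 3. The authors trimmed reads with Trimmomatic 0.33, aligned them with STAR 2.7.11a to hg38 and deposited raw gene counts under the NCBI RefSeq annotation, as whole numbers without normalization. They name RSEM, whereas the table has the layout of featureCounts. Groups were taken from the labels. Members and gene lists were chosen with earlier results of these data known.

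Counts were filtered with filterByExpr (13318 of 59251 genes kept), normalized by TMM and tested in edgeR 4.0.16 (R 4.3.3) with a quasi-likelihood F test on all 12 libraries, a model of the 4 groups and no block (8 residual degrees of freedom), with Benjamini-Hochberg adjustment and a threshold of 0.05. SE was the absolute log2 fold change divided by the square root of F. RPKM used the length column of the table and TMM-scaled totals. A floor of 3 counts was 0.156 to 0.275 CPM per library, and it covers counting error only.

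Genes named are the 7, 8 SRC-family kinases, in each other list the 2 highest and 2 lowest log2 fold changes from no treatment to CDK4/6i+ATRA (mean of at least 1 CPM), and the 2 genes nearest in pattern (pseudocount 1, mean of at least 5 CPM). A few further genes of these routes are not reported here. Alternatives were scaling by library size alone or by DESeq2's size factors, no filter, at least 10 counts in every library, DESeq2 1.42.0, a replicate block, only the groups compared and leaving out each library. The tests were tested on simulated data. Figures were drawn in python 3.11.15 (numpy 2.4.6, pandas 2.3.3, matplotlib 3.10.9). ChIP-Seq was not used here.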

Additional observations from a re-analysis of the deposited data

Results flagged for a closer look

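For all 7 genes the effect of ATRA differed between cells with and without CDK4/6i, by the interaction term of edgeR's model, in 3 libraries per group, as did 51.4% of all genes tested. On the log2 scale the effect of ATRA was smaller with CDK4/6i for FGR (difference -0.71, SE 0.10, adjusted p = 7.58e-08). For SYK the difference was -0.52 (SE 0.058, adjusted p = 1.03e-10). For FES it was -1.80 (SE 0.066, adjusted p = 4.94e-28), where ATRA gave 0.32 without CDK4/6i and -1.48 with it. The effect was larger with CDK4/6i for CBL (0.91, SE 0.059, adjusted p = 1.60e-18) and LCP2 (0.49, SE 0.053, adjusted p = 3.78e-11). For VAV1 (0.28, SE 0.056, adjusted p = 3.06e-05) and LYN (0.19, SE 0.065, adjusted p = 0.0112) the effect was larger under TMM, but the difference was negative and not called under library size alone. LYN was also not called with no filter on low counts (0.11, adjusted p = 0.411) or without CDK4/6i replicate 3 (0.15, adjusted p = 0.0769).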

How the results depend on the processing

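The number of the 7 genes called, higher and lower together, stayed within 1.5 times its main value in all 113 recomputed counts. This is a loose bound, and the loss of the interaction calls of LYN and VAV1 given below lies within it. In the main tests 51.4% to 81.7% of all genes were called, depending on the comparison. Of 791 recomputed tests of single genes, 775 kept their direction and side of the threshold, 13 lost the call in the same direction, 1 gained it and 2 lost it with a change of sign. The interactions of LYN (-0.12, adjusted p = 0.0856) and VAV1 (-0.038, adjusted p = 0.589) changed sign and were no longer called under library size alone, which has no correction for composition and moved the median of all genes to -0.25 between no treatment and CDK4/6i+ATRA and to -0.34 for the interaction. Of the 13 other lost calls, 9 were SYK with ATRA (adjusted p up to 0.301, with only the groups compared). The others were SYK with CDK4/6i, FGR between CDK4/6i+ATRA and ATRA, and LYN's interaction in 2 further settings, and the cause was not tested. Of the levels, 23 of 56 moved by more than 1 SD. Deviations of same-numbered replicates from their group means had correlations of -0.18 to 0.10 (18 pairs, 1 over 0.1). Those of other pairs between groups were -0.14 to 0.16 (36 pairs, 2 over 0.1). With 3 libraries per group, these values cannot show whether same-numbered libraries came from the same experiment. With the replicate number as a block, 7 genes were called with ATRA and with CDK4/6i+ATRA, 6 with CDK4/6i and 7 in the interaction, beside 66.9%, 81.3%, 55.5% and 50.9% of all genes, and no call on the 7 genes changed. LCK and FRK, near the floor of 3 counts, were not testable at this depth. BLK, at 0, is listed on 2 contigs, as are HRAS and ELANE, also at 0 in every library, so its 0 is not read as a level, and how the authors' counting treated reads that map to both contigs is not given in the sources used here.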
